A study of Mus musculus with 8 samples.

Results

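The ubiquitin-conjugating enzymes (E2) and the deubiquitinases of the ubiquitin-specific protease (USP) family were compared in mouse liver RNA from 4 alcohol samples and 4 saline control samples. Members were taken by name, as every symbol beginning with Ube2 and a letter or with Usp and a digit, except Usp2 and Usp18. This gave 80 of the 21049 genes listed, of which 34 belong to the E2 class and 44 to the USP class. The E2 class includes the pseudogene Ube2d-ps. The other 2 carry such a name but belong to other protein families: Ube2cbp, and Usp6nl, a GTPase-activating protein for Rab GTPases. They are described apart.

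All 8 samples are labelled wild type (WT) in genotype, liver in tissue, hepatocyte in cell type and AML12, a mouse hepatocyte line, in cell line, and they carry 1 batch label. The design text names the C57BL/6 strain and an alcohol-fed group. No source used here states the dose or duration of alcohol or the age of the animals. Values were deposited as FPKM, fragments scaled to gene length and library total, so levels of different genes can be compared per length. Endothelial, stellate, Kupffer and red blood cell transcripts were present besides those of hepatocytes, which a hepatocyte line alone would not supply. Separate animals are not stated, so p-values cover the spread between these samples, which may be technical.

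Ubiquitin is activated by an E1 enzyme, passed to the active-site cysteine of an E2, and joined to a target with the help of an E3 ligase. The E2 has a large part in setting which chain is built, and chains of different linkage send proteins to the proteasome, to other membranes or into signalling complexes. Deubiquitinases cut these chains, and the USPs are their largest family. In liver the system turns over proteins of the endoplasmic reticulum, among them the ethanol-oxidizing cytochrome Cyp2e1.

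Promoter windows are shown for the members with the largest rise in each class for which a window was at hand (Ube2e2 and Usp12), for the E2 with the largest fall (Ube2s) and for a chromatin USP that rose (Usp16). They run from 250 bases before to 50 bases after a RefSeq start on GRCm38.p6, 5′ to 3′. Capitals mark matches on either strand. The motifs searched were the GC box, spelled GGGCGG, the TATA box, spelled TATAAA, the core of the cyclic AMP response element (CRE), spelled TGACGT, the CCAAT box and the E-box, spelled CACGTG.
Ube2e2 (chr14:18893722-18894021, minus strand): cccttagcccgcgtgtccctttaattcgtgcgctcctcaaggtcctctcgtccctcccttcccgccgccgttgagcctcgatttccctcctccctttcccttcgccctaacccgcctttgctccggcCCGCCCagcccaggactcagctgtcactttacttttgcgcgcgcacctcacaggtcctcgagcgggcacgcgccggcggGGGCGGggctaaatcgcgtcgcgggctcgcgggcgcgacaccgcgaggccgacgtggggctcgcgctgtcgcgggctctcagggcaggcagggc
Usp12 (chr5:146794907-146795206, minus strand): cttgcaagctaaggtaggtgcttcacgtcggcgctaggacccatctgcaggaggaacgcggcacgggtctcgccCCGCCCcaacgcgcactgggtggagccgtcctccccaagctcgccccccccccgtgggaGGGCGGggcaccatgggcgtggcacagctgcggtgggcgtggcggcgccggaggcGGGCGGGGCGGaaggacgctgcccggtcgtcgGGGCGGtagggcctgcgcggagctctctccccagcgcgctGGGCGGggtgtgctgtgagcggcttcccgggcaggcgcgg
Ube2s (chr7:4812291-4812590, minus strand): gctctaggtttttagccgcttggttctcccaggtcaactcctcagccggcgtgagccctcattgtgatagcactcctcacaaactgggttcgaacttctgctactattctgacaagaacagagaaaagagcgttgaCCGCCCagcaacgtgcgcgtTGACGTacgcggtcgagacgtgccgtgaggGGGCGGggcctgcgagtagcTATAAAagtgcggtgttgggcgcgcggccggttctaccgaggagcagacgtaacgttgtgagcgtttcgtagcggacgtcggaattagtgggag
Usp16 (chr16:87454735-87455034, plus strand): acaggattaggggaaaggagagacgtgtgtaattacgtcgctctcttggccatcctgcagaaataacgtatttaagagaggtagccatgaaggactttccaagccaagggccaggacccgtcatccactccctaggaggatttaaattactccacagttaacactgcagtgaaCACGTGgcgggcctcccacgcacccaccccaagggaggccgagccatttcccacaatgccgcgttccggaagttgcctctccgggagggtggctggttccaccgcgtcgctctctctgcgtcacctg
The Usp12 window held 6 GC boxes, 2 of them overlapping, and those of Ube2e2 and Ube2s held 2 each. Ube2s also held a TATA box and a CRE core, and Usp16 held an E-box and no GC box. Promoters of this kind are common to both classes. A GC box stood in 77.1% of the 35 windows of tested E2 genes and in 79.2% of the 24 windows of tested USP genes, against 35.7% of all 32841 windows. Their median GC content was 70% in E2 windows and 66.5% in USP windows, against 52.7% in all windows. A TATA box was in 8.57% of E2 windows and 8.33% of USP windows, against 13.6% of all windows. Windows were at hand for 24 of the 31 tested genes in each class. The set of all windows also holds genes that were not tested. No share over tested genes alone was made, so these contrasts may not be particular to the classes. Such matches describe the letters only.

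Alcohol samples held more transcript of many members, and the rise was broader among the USPs. Of 31 E2 genes averaging 1 FPKM or more, 14 (45.2%) rose and 3 (9.68%) fell. Of 31 such USP genes, 21 (67.7%) rose and 1 (3.23%) fell. Over all 9228 tested genes 44.2% rose and 13% fell (limma on log2(FPKM + 1), Benjamini-Hochberg adjusted p under 0.05), so the E2 share of rises was near that of all genes. The median log2 change was 0.19 for E2 genes and 0.38 for USP genes, against 0.24 for all tested genes. Genes whose groups did not overlap were also counted, and more USP than E2 genes lay above the controls. All alcohol samples lay above all controls for 14 E2 genes and 17 USP genes, against 39.5% of all tested genes, and below them for 4 E2 genes and 1 USP gene, against 10.7%. The classes also differ in level. Tested E2 genes had a median of 12.1 FPKM over the 8 samples and tested USP genes one of 4.22 FPKM.

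The filter on low values kept 31 of 34 E2 genes and 31 of 44 USP genes. Ube2u, Usp3, Usp20 and, apart from the classes, Usp6nl passed it with a control mean under 1 FPKM, through their alcohol values. Usp3 and Usp20 are among the 21 USP rises, so those 2 calls add no support to that count. When all 21049 genes were fitted with no minimum, 13 E2 genes rose and 4 fell of 34, and 26 USP genes rose and 1 fell of 44, against 24.2% and 6.39% of all genes.

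**Figure D1:**
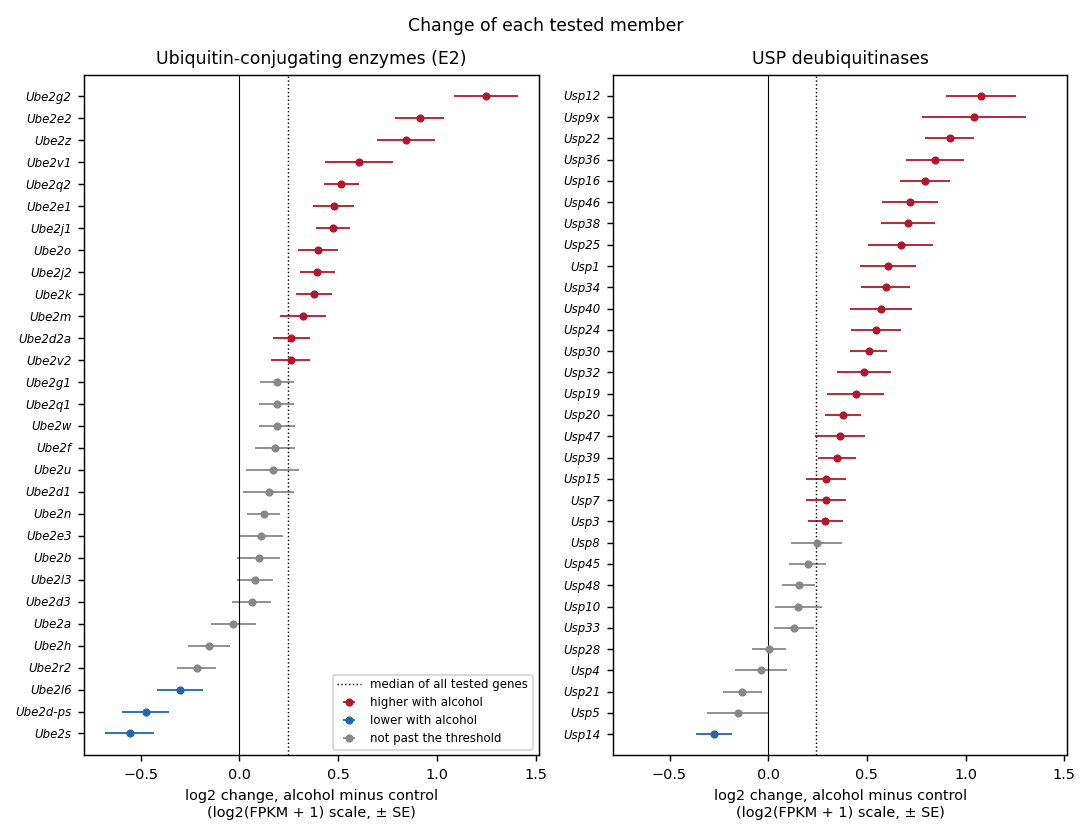
Log2 change (alcohol minus control, on the log2(FPKM + 1) scale) of 30 of the 31 tested E2 genes and the 31 tested USP genes, with the standard error from limma as bars and colour for the call at an adjusted p of 0.05. The dotted line is the median of all tested genes, 0.24; every gene called higher in either class lies to its right, and both classes have genes on both sides of it. With median-of-ratios scaling, which centres the samples, 4 E2 genes and 12 USP genes were called higher and 6 and 4 lower. All tested genes then gave 25.9% higher and 26.5% lower.

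The share that rose depends on how the libraries are scaled and on gene length. Median-of-ratios scaling, which centres the samples, brought the median of all genes to -0.0027, against 0.24 with FPKM as deposited. It then called 4 E2 genes higher and 6 lower, and 12 USP genes higher and 4 lower, against 25.9% of all genes higher and 26.5% lower. The median was then -0.038 for E2 genes and 0.18 for USP genes. USP genes are also long. Their median length recovered from the FPKM values was 4981 bases, against 3133 bases for E2 genes and 3165.5 bases for all tested genes. Longer genes had risen more in general. The median log2 change of all tested genes was -0.06, 0.16, 0.26, 0.33 and 0.40 in the 5 length groups of near-equal size from short to long, and the share that rose went up from 21.1% in the shortest to 61.5% in the longest. Of the 31 USP genes, 16 lie in the fourth group and 10 in the longest. In these, 10 of 16 and 8 of 10 rose, where all genes gave 53.8% and 61.5%. With the length trend removed from every sample and samples centred, a setting chosen after seeing the data, 7 E2 genes were higher and 8 lower, and 8 USP genes were higher and 7 lower, against 26% each way for all genes. The median was then -0.0070 for E2 genes and 0.071 for USP genes.

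Other settings gave background shares of their own. With quantile normalization 6 E2 genes were higher and 5 lower, and 8 USP genes higher and 4 lower, against 24.1% and 25% of all genes. On the TPM scale, where every column has the same sum, 19 E2 genes were higher and 2 lower and 23 USP genes higher, against 52.7% and 8.82%. With only the length trend removed, 16 E2 genes were higher and 2 lower, and 17 USP genes higher and 1 lower, against 46.5% and 11.5%. A pseudocount of 0.1 (background 44.1% and 13.1%), limma-voom on recovered reads (44.3% and 12.9%) and a replicate block (46.7% and 15%) each called 14 E2 genes and 21 USP genes higher. Leaving out single samples moved the counts of both classes. Without alcohol replicates 1 to 4 in turn, 13, 11, 14 and 11 E2 genes rose. Of the 30 USP genes then tested 17, 20, 16 and 19 rose, against 41%, 40.8%, 40.7% and 40.3% of all genes. Without control replicates 1 to 4 in turn, 14, 12, 11 and 11 E2 genes rose. For USP genes the counts were 23, 17, 16 and 17, against 47.5%, 40.7%, 38.6% and 39.2% of all genes. The share of all genes that fell ran from 11.3% to 12.1% without an alcohol sample (11.7%, 12.1%, 11.3% and 11.8%) and was 13.8%, 10.8%, 10.7% and 11.8% without each control.

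**Figure D2:**
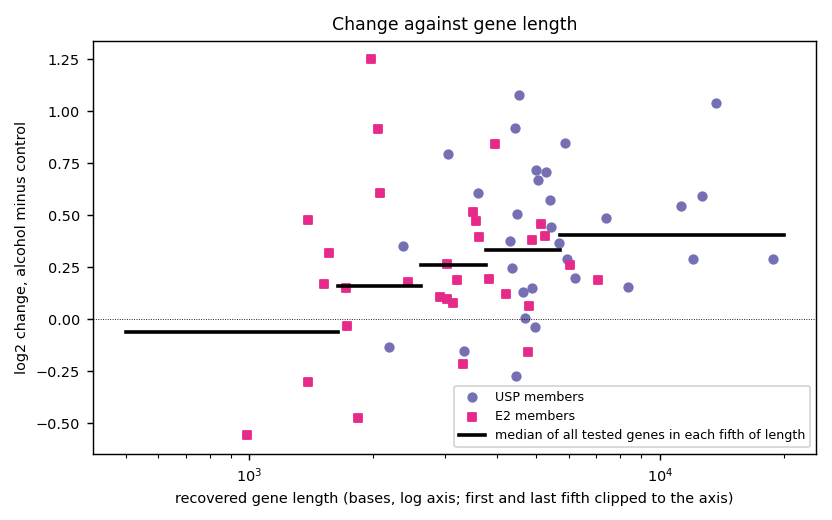
Log2 change (alcohol minus control) of each tested member against its gene length in bases on a log axis, with USP genes as circles and E2 genes as squares. Black lines give the median of all tested genes in each of 5 length groups, which climb from -0.06 to 0.40; 16 USP genes lie in the fourth group and 10 in the longest.

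**Figure D3:**
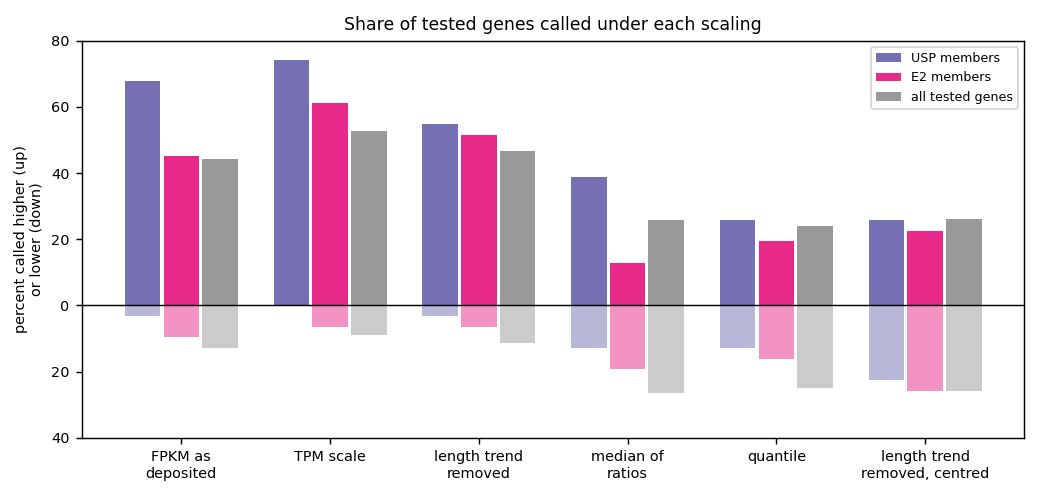
Percent of tested USP genes (31), E2 genes (31) and all tested genes (9228) called higher with alcohol (bars above 0) or lower (pale bars below 0) under 6 ways of scaling the libraries. USP genes led all tested genes by 67.7% to 44.2% with FPKM as deposited, and stood at 25.8% against 26% with the length trend removed and samples centred.

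The USP class also varied within the groups. The median of the 31 USP genes, relative to the control mean of each gene, was 0.52, 0.31, 0.46 and 0.30 in alcohol replicates 1 to 4, and 0.23, -0.10, -0.05 and -0.11 in control replicates 1 to 4. Alcohol replicates 1 and 3 stood above alcohol replicates 2 and 4, and control replicate 1 stood above the other controls without reaching any alcohol sample. In the E2 class the same median was 0.16, 0.23, 0.21 and 0.31 in alcohol samples and 0.06, -0.01, 0.00 and -0.06 in controls. Both of alcohol replicates 1 and 3 exceeded both of replicates 2 and 4 in 23 of 31 USP genes (74.2%) and 2 of 31 E2 genes, against 31.8% of all tested genes. Control replicate 1 was the highest control in 27 USP genes (87.1%) and 13 E2 genes (41.9%), against 47.1% of all tested genes. Both orders are those of the USP medians above, so high USP counts follow from them and add no support. No share matched for gene length was made for these counts. The longest group of genes followed the USPs sample by sample, with medians of 0.50, 0.31, 0.47 and 0.34 in alcohol samples and 0.19, -0.03, -0.08 and -0.08 in controls. The part of gene length in the USP values was not tested beyond the setting above.

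Summed over the class, E2 transcripts reached 509 ± 20.9 FPKM in alcohol samples and 451 ± 15.6 FPKM in controls (SD, n = 4 each). The USP sum was 201 ± 20.3 FPKM in alcohol samples and 150 ± 23.0 FPKM in controls. The ratio of USP to E2 sums was 0.436, 0.351, 0.451 and 0.347 in alcohol samples and 0.394, 0.304, 0.316 and 0.310 in controls. These groups overlap, since control replicate 1 exceeded alcohol replicates 2 and 4.

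**Figure D4:**
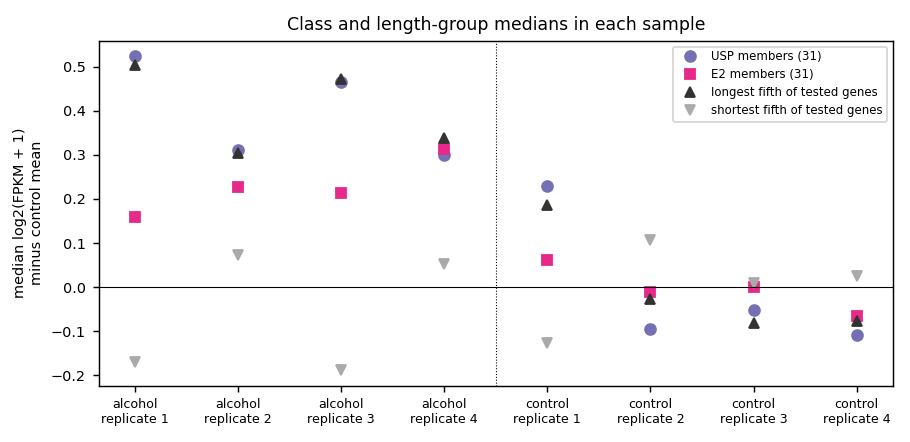
Median over genes of log2(FPKM + 1) minus each gene's control mean, in every sample, for USP genes, E2 genes, and the longest and shortest length groups of all tested genes. The USP points (0.52, 0.31, 0.46 and 0.30 with alcohol) lie close to those of the longest genes (0.50, 0.31, 0.47 and 0.34), and control replicate 1 stands apart from the other controls in both.

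Among the E2 genes, those of the endoplasmic reticulum rose together, and Ube2g2 had the largest rise of the class. Ube2g2, Ube2j1 and Ube2j2 load ubiquitin onto proteins that leave the endoplasmic reticulum for degradation. All 3 rose, where 44.2% of all tested genes did, and their summed level was 51.2 to 63.7 FPKM in alcohol samples and 29.1 to 36.7 FPKM in controls. Ube2g2, which works with the ligases gp78 and Hrd1, had 35.9, 32.9, 25.7 and 25.7 FPKM in alcohol samples, against 16.3, 10.7, 11.2 and 10.2 FPKM in controls. Every alcohol sample lay far above every control, and control replicate 1 was the highest control. The alcohol mean was 2.48 times the control mean (log2 change 1.25 ± 0.16 SE, limma adjusted p = 0.000125). Ube2j1, a membrane-anchored E2, had 17, 16, 15.8 and 16.2 FPKM in alcohol samples, against 12.3, 11.1, 10.5 and 11.8 FPKM in controls. Its groups did not overlap and were tight, with a log2 change of 0.47 ± 0.09 (limma adjusted p = 0.00114). Ube2j2, its relative in the same membrane, had 10.6 ± 0.586 FPKM in alcohol samples and 7.84 ± 0.425 FPKM in controls (SD, n = 4 each; limma adjusted p = 0.00336). With median-of-ratios scaling the call remained for Ube2g2 alone (log2 change 0.96), and stood at 0.19 for Ube2j1 and 0.12 for Ube2j2. Ube2g2 lies on chromosome 10 from 77622275 to 77645993 (plus strand, GRCm38). Of its 50-base words 6.03% are shared with other genes, most often the overlapping gene Gm49325, so a small part of its reads is uncertain.

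Of 7 tested E2s that begin chains with RING ligases 3 rose, against 44.2% of all tested genes: Ube2e1, Ube2e2 and Ube2d2a. With median-of-ratios scaling 1 was higher and 1 lower, against 25.9% and 26.5% of all tested genes. Ube2e2 had 8.68, 10.7, 10.4 and 9.25 FPKM in alcohol samples, against 5.38, 5.61, 4.15 and 3.84 FPKM in controls. The groups stood well apart, at 2.06 times the control mean (log2 change 0.91 ± 0.12, limma adjusted p = 0.000176). Its relative Ube2e1 had 27.3 ± 1.92 FPKM in alcohol samples and 19.3 ± 2 FPKM in controls (log2 change 0.48 ± 0.10, adjusted p = 0.00275), a call that median-of-ratios scaling ended, while Ube2e3 had 13.6 ± 1.83 FPKM in alcohol samples and 12.4 ± 0.846 FPKM in controls (adjusted p = 0.418). Ube2d3, a widely used E2 and the member of highest level, had 54.1, 57.7, 51.6 and 58.3 FPKM in alcohol samples, against 55.5, 57.2, 50.5 and 49.3 FPKM in controls. These groups overlapped, with a log2 change of 0.06 ± 0.10 (adjusted p = 0.605), which became -0.24 with median-of-ratios scaling and -0.29 with the length trend removed and samples centred, and was called lower in both. The pseudogene Ube2d-ps had 1.52, 2.31, 2.22 and 2.22 FPKM in alcohol samples, against 2.64, 3.59, 3.43 and 3.37 FPKM in controls. All alcohol samples lay below all controls (log2 change -0.48 ± 0.12, adjusted p = 0.00598). Its exons overlap those of Urgcp on the other strand, and no source used here states whether the libraries kept strand.

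Chain-elongating E2s moved in both directions. Of 7 tested (background 44.2% higher and 13% lower), Ube2k, Ube2v1 and Ube2v2 rose and Ube2s fell. With median-of-ratios scaling (background 25.9% and 26.5%) no rise passed the threshold and 2 genes were lower. Ube2s, which extends K11-linked chains on substrates of the anaphase-promoting complex, had 15.3, 11.8, 12.4 and 12.2 FPKM in alcohol samples, against 18.3, 16.2, 20.9 and 22.7 FPKM in controls. No alcohol sample reached the lowest control (log2 change -0.56 ± 0.13, limma adjusted p = 0.00342). Removing the length trend alone ended the call for this gene, which has a short recovered length of 988 bases. Its exons overlap those of the ribosomal protein gene Rpl28 on the other strand, at 597 ± 141 FPKM in alcohol samples and 544 ± 97.2 FPKM in controls. Ube2c, which starts the chains that Ube2s extends, lay below the minimum at 0.281, 0.347, 0.028 and 0.231 FPKM in alcohol samples, against 0.494, 0.688, 0.898 and 0.856 FPKM in controls. Again no alcohol sample reached the lowest control. Ube2t, the E2 of the Fanconi anaemia pathway, was likewise lower, at 0.140 ± 0.0735 FPKM in alcohol samples and 0.391 ± 0.152 FPKM in controls. Both were called in the fit of all genes, where 3.09% of genes below the minimum were called lower. Their reads were few. Ube2c had 1 to 12 recovered reads in alcohol samples and 16 to 29 in controls. Ube2t had 2 to 9 in alcohol samples and 11 to 24 in controls. Neither was fitted under another scaling. Ube2v1, the inactive partner of Ube2n in K63-linked chains, had 13.8, 13.6, 14.9 and 14.3 FPKM in alcohol samples, against 13.7, 6.70, 9.08 and 7.62 FPKM in controls. Control replicate 1 reached the alcohol level and the other controls did not (adjusted p = 0.0119), and the call was lost with median-of-ratios scaling and quantile normalization. A share of 58.0% of its 50-base words lies also in transcripts of other genes, most often the readthrough gene Gm20431, so its reads are uncertain.

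Of 4 tested E2s of ubiquitin-like modifiers 2 rose and 1 fell, where 44.2% of all tested genes rose and 13% fell. With median-of-ratios scaling no rise passed and 1 was lower, against 25.9% higher and 26.5% lower of all tested genes. Ube2l6, the E2 of the interferon-induced modifier Isg15, had 49.9, 47.5, 40.5 and 45.1 FPKM in alcohol samples, against 50.5, 55.1, 67.7 and 54.1 FPKM in controls. The highest alcohol sample lay just below the lowest control (log2 change -0.30 ± 0.12, adjusted p = 0.0461), and the call was lost under 10 of 17 alternatives. Isg15 itself had 3.27 ± 0.768 FPKM in alcohol samples and 13.2 ± 4.31 FPKM in controls, and its E1 enzyme Uba7 had 1.26 ± 0.146 FPKM in alcohol samples and 2.06 ± 0.209 FPKM in controls, both past the threshold. Ube2m, which carries Nedd8, had 29.8 ± 4.26 FPKM in alcohol samples and 23.5 ± 1.44 FPKM in controls (adjusted p = 0.0362). Its groups overlapped, and the call held under 7 of 17 alternatives, with a log2 change of 0.32 that was 0.028 with median-of-ratios scaling. Ube2f, the other Nedd8 E2, had 13 ± 1.49 FPKM in alcohol samples and 11.3 ± 0.401 FPKM in controls (adjusted p = 0.151).

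Of the remaining E2s, Ube2z had 12.5, 14.5, 13.7 and 13.3 FPKM in alcohol samples, against 10.1, 6.46, 6.75 and 5.64 FPKM in controls. Ube2z receives ubiquitin from the E1 enzyme Uba6; its groups did not overlap although control replicate 1 stood above the other controls (log2 change 0.84 ± 0.15, adjusted p = 0.000793). Ube2q2, a less studied E2, had 8.88, 8.32, 8.65 and 8.21 FPKM in alcohol samples, against 6.17, 5.56, 5.78 and 5.15 FPKM in controls. This was 1.5 times the control mean with little spread (log2 change 0.52 ± 0.09, adjusted p = 0.00069). Of the 50-base words of Ube2q2, 16.4% are shared with other genes, most often Gm4895. Ube2l3, a partner of HECT and RBR ligases such as parkin, had 31.9 ± 0.716 FPKM in alcohol samples and 30.3 ± 2.55 FPKM in controls (adjusted p = 0.488), and Ube2b, a Rad6 enzyme of DNA damage tolerance, had 30.4 ± 2.06 FPKM in alcohol samples and 28.5 ± 3.53 FPKM in controls (adjusted p = 0.463). Both changes, 0.08 and 0.10, turned negative with median-of-ratios scaling. Ube2u, just above the minimum, had 1.23 ± 0.264 FPKM in alcohol samples and 0.992 ± 0.314 FPKM in controls (adjusted p = 0.297).

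**Figure D5:**
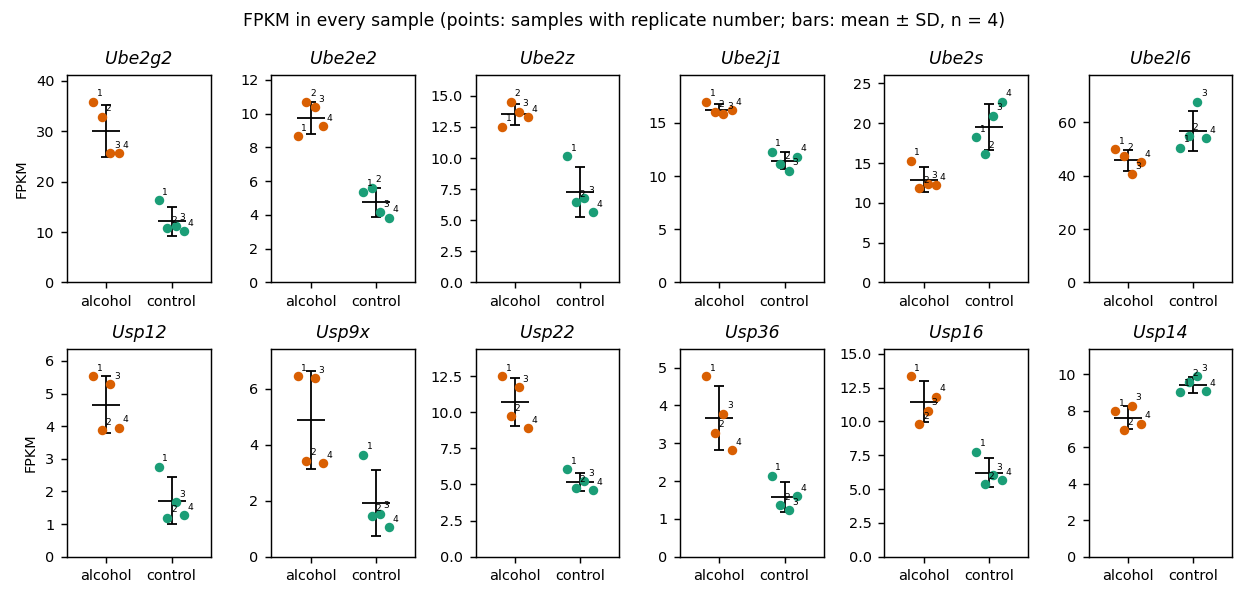
FPKM of 12 members in every sample, with replicate numbers beside the points and the mean ± SD (n = 4) as bars; alcohol samples stand left of controls and every axis starts at 0. Ube2g2, Ube2e2, Usp12, Usp22 and Usp16 were higher in all alcohol samples, Ube2s and Usp14 lower, and in Usp12 and Usp9x alcohol replicates 1 and 3 stand above replicates 2 and 4.

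Among the USPs, the largest rise was in Usp12, and its close relative Usp46 rose with it. Both cut ubiquitin as complexes with the WD-repeat protein Wdr48. Usp12 had 5.54, 3.87, 5.29 and 3.95 FPKM in alcohol samples, against 2.76, 1.20, 1.66 and 1.27 FPKM in controls. Every alcohol sample exceeded the highest control, at 2.71 times the control mean (log2 change 1.08 ± 0.18, limma adjusted p = 0.000502). Usp46 had 2.76, 2.54, 3.46 and 2.61 FPKM in alcohol samples, against 1.95, 1.10, 1.48 and 0.901 FPKM in controls. Its groups were also apart (log2 change 0.72 ± 0.14, adjusted p = 0.00156). Usp1, another Wdr48 partner, acts in the Fanconi anaemia pathway. It had 5.26 ± 0.430 FPKM in alcohol samples and 3.18 ± 0.904 FPKM in controls (log2 change 0.61 ± 0.14, adjusted p = 0.00425). Of its 50-base words 21.4% are shared with other genes, most often Gm5841. Wdr48 itself had 4.81 ± 0.319 FPKM in alcohol samples and 5.10 ± 0.835 FPKM in controls (adjusted p = 0.654). Wdr20, a second activator of Usp12 and Usp46, had 1.59 ± 0.174 FPKM in alcohol samples and 1.18 ± 0.179 FPKM in controls (adjusted p = 0.0461).

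Of 6 tested USPs of chromatin and the nucleolus 5 rose, against 44.2% of all tested genes, and Usp3 among them passed the minimum only through its alcohol values. Under median-of-ratios scaling 3 were higher and 1 lower, against 25.9% and 26.5%. Usp22, the deubiquitinase of the SAGA coactivator complex that removes ubiquitin from histones H2A and H2B, had 12.5, 9.72, 11.7 and 8.88 FPKM in alcohol samples, against 6.05, 4.77, 5.23 and 4.62 FPKM in controls. The lowest alcohol sample stood well above the highest control (2.07 times, log2 change 0.92 ± 0.12, adjusted p = 0.000167). Its SAGA partner Atxn7l3 had 6.08 ± 0.538 FPKM in alcohol samples and 3.82 ± 0.372 FPKM in controls (adjusted p = 0.000844), and Eny2, the small subunit of the same module, 15.2 ± 3.05 FPKM in alcohol samples and 18.2 ± 2 FPKM in controls (adjusted p = 0.143). Usp16, which acts on histone H2A, had 13.4, 9.81, 10.8 and 11.8 FPKM in alcohol samples, against 7.75, 5.37, 6.02 and 5.64 FPKM in controls. Its groups did not overlap (log2 change 0.79 ± 0.13, adjusted p = 0.000477). On the other strand, the exons of Usp16 overlap those of the chaperonin gene Cct8, which was lower, at 30.3 ± 2.18 FPKM in alcohol samples and 57.0 ± 2.18 FPKM in controls. Usp36, a nucleolar deubiquitinase, had 4.78, 3.27, 3.78 and 2.81 FPKM in alcohol samples, against 2.15, 1.37, 1.24 and 1.6 FPKM in controls. Here too all alcohol samples were above all controls (2.31 times, log2 change 0.84 ± 0.15, adjusted p = 0.00076). Usp21, another H2A deubiquitinase, had 3.83 ± 0.489 FPKM in alcohol samples and 4.28 ± 0.232 FPKM in controls (adjusted p = 0.272).

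The deubiquitinases that work at the proteasome and on free chains went the other way or did not pass. Usp14, which trims chains on the proteasome, had 7.99, 6.95, 8.29 and 7.29 FPKM in alcohol samples, against 9.06, 9.6, 9.91 and 9.08 FPKM in controls. All alcohol samples lay below all controls (log2 change -0.27 ± 0.09, adjusted p = 0.0251), and it was the only tested USP called lower in this fit. The call did not hold under 5 of 17 alternatives: TPM scale, and leaving out alcohol replicate 2 or 4 or control replicate 2 or 3. Exons of the neighbouring gene Thoc1, on the other strand, overlap its own. Usp5, which takes apart free chains, had 8.74 ± 0.743 FPKM in alcohol samples and 10 ± 2.83 FPKM in controls (adjusted p = 0.423). Psmd14, the deubiquitinase of the proteasome lid from the JAMM family, had 17.3 ± 1.64 FPKM in alcohol samples and 26.6 ± 1.72 FPKM in controls (log2 change -0.59 ± 0.10, adjusted p = 0.000635), while Uchl5, also bound to the proteasome, had 7.74 ± 1.37 FPKM in alcohol samples and 7.86 ± 0.484 FPKM in controls (adjusted p = 0.839).

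Of the USPs in signalling 4 of 5 tested rose, of those in trafficking 4 of 7, and of those in DNA repair 3 of 6, against 44.2% of all tested genes and 53.8% and 61.5% of the fourth and longest length groups, where most USPs lie. With median-of-ratios scaling 3, 2 and 1 of them were higher, and 1 in signalling was lower, against 25.9% and 26.5% of all tested genes. Usp20, among the trafficking rises, passed the minimum only through its alcohol values, so its call adds no support to that count. Usp9x, a large deubiquitinase of trafficking and TGF-beta signalling, had 6.45, 3.42, 6.37 and 3.34 FPKM in alcohol samples, against 3.65, 1.44, 1.53 and 1.05 FPKM in controls. Control replicate 1 stood above alcohol replicates 2 and 4, so the groups overlapped in spite of a mean 2.55 times the control (log2 change 1.04 ± 0.26, adjusted p = 0.00659). Usp38, named in interferon and NF-kB signalling, had 7.03, 5.16, 6.42 and 4.32 FPKM in alcohol samples, against 3.64, 3, 2.93 and 2.76 FPKM in controls. The groups did not overlap (log2 change 0.71 ± 0.14, adjusted p = 0.00139). Usp24, a large deubiquitinase linked to DNA damage responses, had 7.75, 5.89, 7.56 and 5.70 FPKM in alcohol samples, against 5.21, 3.83, 4.17 and 3.92 FPKM in controls. These groups were apart (adjusted p = 0.00389), and the call held under 14 of 17 alternatives. Usp30, the mitochondrial outer membrane enzyme that opposes parkin in mitophagy, had 4.39, 3.75, 4.49 and 4.30 FPKM in alcohol samples, against 2.88, 2.90, 2.60 and 2.34 FPKM in controls. It was higher in all alcohol samples (log2 change 0.51 ± 0.09, adjusted p = 0.00113), and the call was lost with quantile normalization and with the length trend removed and samples centred. Exons of Usp30 overlap those of Alkbh2 on the other strand. Alkbh2 also rose, at 3.10 ± 0.682 FPKM in alcohol samples and 1.87 ± 0.212 FPKM in controls.

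Of the 3 most abundant USPs, Usp47 rose and Usp10 and Usp4 did not pass. Usp10, a regulator of p53 and of stress granules, had 15.5 ± 1.02 FPKM in alcohol samples and 13.9 ± 2.23 FPKM in controls (adjusted p = 0.293), and its log2 change of 0.15 became -0.13 with median-of-ratios scaling. Usp4 had 11.6, 10.5, 11.3 and 10.7 FPKM in alcohol samples, against 15.1, 9.54, 10.7 and 10.6 FPKM in controls. Only control replicate 1 stood out; with all samples the log2 change was -0.04, and without that control it was 0.092. It was called lower with median-of-ratios scaling (-0.31) and with the length trend removed and samples centred (-0.39). Usp47, a deubiquitinase of base excision repair, had 12.3 ± 1.36 FPKM in alcohol samples and 9.39 ± 1.6 FPKM in controls (adjusted p = 0.0289), with a log2 change of 0.36 that was -0.0046 with the length trend removed and samples centred; the call held under 7 of 17 alternatives. Usp39, an inactive member needed for splicing, had 9.92 ± 0.750 FPKM in alcohol samples and 7.57 ± 0.626 FPKM in controls (adjusted p = 0.0103). Its log2 change of 0.35 was 0.079 with median-of-ratios scaling, 0.075 with quantile normalization and 0.17 with the length trend removed and samples centred, and none of these passed. Usp40 had 4.70 ± 1.06 FPKM in alcohol samples and 2.83 ± 0.692 FPKM in controls (adjusted p = 0.0101), with groups that overlapped and a call that held under 14 of 17 alternatives. Exons of Usp40 overlap those of Dgkd on the other strand. Dgkd was also higher in all alcohol samples, at 1.31 ± 0.168 FPKM against 0.653 ± 0.216 FPKM in controls.

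At the edge of the minimum, Usp20 had 1.29 ± 0.141 FPKM in alcohol samples and 0.762 ± 0.131 FPKM in controls (limma adjusted p = 0.0113 in the fit with no minimum), a mean just above it that rests on the alcohol values. Its call was lost under quantile normalization and with the length trend removed and samples centred. Usp20 was not tested without alcohol replicate 2, 3 or 4, where it did not meet the minimum. Usp42, just below it, had 0.990 ± 0.178 FPKM in alcohol samples and 0.558 ± 0.123 FPKM in controls. Of the 13 USP genes below the minimum, 7 were called higher in the fit of all genes, against 12.7% of all genes below the minimum: Usp11, Usp31, Usp37, Usp42, Usp49, Usp53 and Usp54. That fit used FPKM as deposited. No share matched for gene length or level was made, so the count does not show an excess particular to USP genes. Usp31 had 1.32, 0.906, 1.41 and 0.851 FPKM in alcohol samples, against 0.378, 0.297, 0.208 and 0.238 FPKM in controls. Its alcohol mean was 4.00 times the control mean with no overlap. Usp49 shares 49.3% of its 50-base words with other genes, most often Gm20517, so its reads are uncertain. Usp13, Usp44 and Ube2ql1 had at most 3 recovered reads in any library, and Usp50 at most 1.

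Usp6nl, counted apart as no deubiquitinase, had the largest log2 rise of the 80 symbols in the fit of all genes, and passed the minimum only through its alcohol values. It had 4.19, 3.71, 4.19 and 3.86 FPKM in alcohol samples, against 1.25, 0.905, 0.796 and 0.960 FPKM in controls. The gap between groups was far wider than the spread within them (4.08 times, log2 change 1.34, limma adjusted p = 0.000116 in the fit with no minimum). Ube2cbp had 1.49 ± 0.137 FPKM in alcohol samples and 1.13 ± 0.170 FPKM in controls (adjusted p = 0.0565).

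Of the 62 tested members of both classes, 12 passed the threshold in the same direction under all 17 alternatives of scaling, filter, model and left-out sample. Over all tested genes 19% did so as higher and 7.02% as lower, so the share of both classes together is no larger than that of all genes. The 5 E2 genes are Ube2g2, Ube2e2, Ube2z and Ube2q2, which rose, and Ube2d-ps, which fell. The 7 USP genes, all of which rose, are Usp12, Usp9x, Usp22, Usp36, Usp16, Usp46 and Usp38. Usp6nl, counted apart, also passed in all 17, but it met the minimum only through its alcohol values.

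Other deubiquitinase families and the SUMO proteases were counted in the same fit, against the background of 44.2% higher and 13% lower (25.9% and 26.5% with median-of-ratios scaling). Of 12 tested OTU deubiquitinases 9 rose, and with median-of-ratios scaling 6 were higher and 1 lower. Otud7b, which edits K11-linked chains, led them with 3.67 ± 0.529 FPKM in alcohol samples and 1.40 ± 0.246 FPKM in controls (log2 change 0.96 ± 0.11, adjusted p = 6.23e-05). Among 7 tested UCH, Josephin and MINDY enzymes 4 rose, and with median-of-ratios scaling 3 were higher and 1 lower; Mindy1, which prefers long K48-linked chains, had 43.1 ± 2.19 FPKM in alcohol samples and 21.8 ± 1.62 FPKM in controls (adjusted p = 2.25e-05). All 4 tested SUMO proteases rose, and 3 of them were higher with median-of-ratios scaling. Senp6 had 10.5 ± 1.47 FPKM in alcohol samples and 5.11 ± 0.403 FPKM in controls (adjusted p = 8.48e-05), and Senp3 had 15.1 ± 0.428 FPKM in alcohol samples and 8.03 ± 0.894 FPKM in controls (adjusted p = 5.5e-05). Of 9 JAMM metalloproteases 1 rose and 2 fell, and with median-of-ratios scaling 3 were lower.

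Upstream of the E2s, 4 of 9 tested E1 genes rose and 1 fell, a share of rises near the 44.2% of all genes. With median-of-ratios scaling 2 were higher and 5 lower, against 25.9% and 26.5% of all genes. Nae1, a subunit of the Nedd8 E1, had 13.5 ± 0.484 FPKM in alcohol samples and 8.26 ± 1.41 FPKM in controls (adjusted p = 0.000857). Uba1, the main ubiquitin E1, had 28.9 ± 2.21 FPKM in alcohol samples and 29.0 ± 3.48 FPKM in controls (adjusted p = 0.981). Of 11 genes for ubiquitin and its relatives 3 rose and 1 fell, and with median-of-ratios scaling no rise passed and 3 were lower; the polyubiquitin gene Ubb had 392 ± 28.6 FPKM in alcohol samples and 387 ± 49.4 FPKM in controls (adjusted p = 0.881). Other proteins with an E2 fold gave 2 higher and 1 lower of 7, and 1 higher and 3 lower with median-of-ratios scaling; Cdc34 had 55.0 ± 11.2 FPKM in alcohol samples and 41.1 ± 0.638 FPKM in controls (adjusted p = 0.032).

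Endothelial and stellate cell markers moved with the groups. Sums of T, B and NK cell markers were also apart but barely detected, and the other cell type lists overlapped between groups. All 6 endothelial markers rose, where 44.2% of all tested genes rose and 13% fell. Their summed level was 55.9 to 65.7 FPKM in alcohol samples and 12.3 to 18.8 FPKM in controls. Of 5 stellate cell markers 3 rose, with sums of 97.3 to 137 FPKM in alcohol samples and 35.9 to 66.3 FPKM in controls. Kupffer cell markers summed to 22.5 to 42.0 FPKM in alcohol samples and 18.2 to 67.6 FPKM in controls, and red blood cell markers to 103 to 164 FPKM in alcohol samples and 153 to 309 FPKM in controls. T, B and NK cell markers, none of which reached the minimum, summed to 0.460 to 1.35 FPKM in alcohol samples and 1.47 to 2.62 FPKM in controls. Every alcohol sample was thus below every control. Neutrophil markers summed to 1.45 to 34.6 FPKM in alcohol samples and 2.59 to 4.50 FPKM in controls. No marker was at 0 in all samples, and of 4 hepatocyte markers 1 rose and 2 fell. The part of cell composition in the E2 and USP values was not tested, and in bulk samples fewer cells of a type cannot be told apart from less RNA per cell.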

How the data were processed

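The deposited file holds FPKM for 21049 gene symbols in 8 samples, made by the authors; every column was used. Per the labels' protocols RNA was purified on Qiagen columns and libraries were made with a SMARTER kit; the submitters' processing notes name the builds GRCm38 and mm10. No source used here names the aligner, counter or annotation.

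Whole reads were recovered from the FPKM for 21047 genes (99.99%), as whole multiples of 1 read to within 1e-06 of a read or 1e-09 of the value, whichever is larger. The recovered library totals were 37132631 to 38407511 reads in alcohol samples and 33872595 to 34789814 reads in controls, and they served for depth, gene length and 1 alternative test. For some members the recovered length exceeds the exons annotated in GENCODE M21, and for others it is shorter, as in Ube2s (988 against 5141 bases). The authors' gene models differ there. Overlaps and shared words were taken from GENCODE models, so they may lie outside the sequence that the authors counted.

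The test was limma (version 3.58.1, run in R 4.3.3) applied to log2(FPKM + 1) of the 9228 genes averaging 1 FPKM or more, with moderated variances trended on mean level and 2-sided p-values adjusted by Benjamini-Hochberg over all tested genes at 0.05. A log2 change is alcohol minus control and understates changes of low genes. The procedure was checked on simulated data. Positions and overlaps come from GENCODE M21 and promoters from RefSeq on GRCm38.p6; all 80 symbols matched in GENCODE.

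Alternatives were a pseudocount of 0.1, no minimum, other scalings, removal of a gene length trend, limma-voom on recovered reads, a replicate block and leaving out each sample. The members and lists were chosen with earlier results of these data known. Members were named by rule: the 6 largest rises and falls past the threshold per class, the 3 highest levels, the smallest p in each role list and those beside the minimum; members and pathway genes beyond these were chosen after their values were seen. A part of the rule on protein identity was not applied, and 1 E2 gene that the rule names is counted but not reported here. Alcohol replicates 2 and 4 resembled each other more than other pairs did (chi-square per gene of 10.1, next lowest 56.6). Each was counted once; a shared source would make p-values too small.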

Additional observations from a re-analysis of the deposited data

Results flagged for a closer look

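Of 66 groups of 4 samples, the 2 groups of each of 33 named members, 4 held a sample far from the other 3; chance gives about 1 in 20. For Ube2d-ps the lowest alcohol sample, at 1.52 FPKM against 2.22 FPKM for the nearest, took 0.885 of the group's range as its gap. For Ube2u the lowest alcohol sample, at 0.834 FPKM against 1.34 FPKM, had a gap of 0.915 of the range. In controls, the highest Ube2g2 sample, at 16.3 FPKM against 11.2 FPKM, had a gap of 0.833, and the highest Ube2l3 sample, at 34.0 FPKM against 29.5 FPKM, had a gap of 0.849.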

How the results depend on the processing

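With median-of-ratios scaling 4 E2 genes were higher and 6 lower and 12 USP genes higher and 4 lower, with medians of -0.038 and 0.18. Of all tested genes 25.9% were then higher and 26.5% lower. With quantile normalization the counts were 6 and 5 for E2 genes and 8 and 4 for USP genes, with medians of 0.0012 and 0.11. All tested genes then gave 24.1% and 25%. With the length trend removed and samples centred the counts were 7 and 8 for E2 genes and 8 and 7 for USP genes. The medians were -0.0070 and 0.071, and 26% of all tested genes were called each way. On the TPM scale no USP gene was lower (0), against 8.82% of all tested genes. The medians were then 0.34 for E2 genes and 0.59 for USP genes. With limma-voom the medians were 0.25 for E2 genes and 0.58 for USP genes, and with a pseudocount of 0.1 the USP median was 0.52. Leaving out a sample gave 11 to 14 E2 genes higher, 2 to 3 lower, 16 to 23 USP genes higher and 0 to 1 lower. Of all tested genes 38.6% to 47.5% were then higher and 10.7% to 13.8% lower. The USP class gave 0 lower without alcohol replicate 2 or 4 or control replicate 2 or 3. The USP median stayed above the E2 median in every alternative. The difference was 0.19 in the main fit and 0.32 with limma-voom. It was 0.22 with median-of-ratios scaling, 0.11 with quantile normalization and 0.078 with the length trend removed and samples centred. The cause of these shifts was not tested.

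Among named members the log2 change turned negative for Ube2b (-0.19 with median-of-ratios scaling, -0.011 with quantile normalization, -0.15 with length trend removed and samples centred), for Ube2d3 (-0.24 with median-of-ratios scaling, -0.042 with the length trend removed, -0.29 when also centred) and for Ube2l3 (-0.21 with median-of-ratios scaling, -0.18 with length trend removed and centred). It also did for Ube2u (-0.16 with quantile normalization), Usp10 (-0.13 with median-of-ratios scaling, -0.079 with quantile normalization, -0.20 with length trend removed and centred) and Usp47 (-0.0046 in that last setting). Usp4 turned positive on the TPM scale (0.10) and without control replicate 1 (0.092; range over left-out samples -0.11 to 0.092); it was called lower with median-of-ratios scaling (-0.31) and with length trend removed and centred (-0.39).

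The replicate numbers share no stated source. Deviations of same-numbered samples correlated at 0.349, 0.216, 0.0706 and 0.280. With the numbers as a block 14 E2 genes were higher and 2 lower and 21 USP genes higher and 1 lower. All tested genes then gave 46.7% higher and 15% lower. With 4 samples a group, members of a few reads a library cannot be compared at this depth.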
